A study of Mus musculus with 18 samples.

Results

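Axon guidance ligands and receptors were followed here through the response of the mouse dentate gyrus to neuronal activation and to c-Fos overexpression. The members were chosen by gene name: semaphorins of classes 3 to 7, plexins, neuropilins, ephrins, Eph receptors, Slits, Robos, netrins, Unc5 receptors and Dcc. The naming pattern matched 70 of the 24015 rows in each of the 3 tables of comparisons. They comprised 35 ligand genes, 34 receptor genes and Plxna4os1, a transcript named as antisense to Plxna4 that encodes neither. RNA came from microdissected dentate gyrus of C57BL/6 mice aged 8 weeks, with a library made from each animal and 3 libraries in each of 6 groups. Overexpression of c-Fos, one of the proteins that pair up as the transcription factor AP-1, defined cFos_OE, and that of a yellow fluorescent marker its control EYFP_OE. The groups shRNA-Ctrl_E0 and shRNA-Ctrl_E1 carried a control short hairpin RNA, and shRNA-cFos_E0 and shRNA-cFos_E1 one named for c-Fos. The deposited comparisons set E1 against sham, which was taken as E0, and E1 was read as the activated state because the study's design names neuronal activation. The route of delivery, the cells that took up the constructs and the promoters that drove them were not stated in the labels. Every animal of the 4 hairpin groups carried a hairpin, so none of these comparisons includes tissue without a construct.

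Guidance cues steer growing axons and, in the adult, act on synapses, spines and vessels. Class 3 semaphorins are secreted and signal through neuropilins that bind the ligand and plexins that carry the signal into the cell, while most other semaphorins are membrane proteins that bind plexins directly. Ephrins are held at the membrane and bind Eph receptor tyrosine kinases on the neighbouring cell, with signals passing in both directions. Slits repel through Robo receptors, and netrins attract through Dcc or repel through Unc5 receptors. In the hippocampus these families are known for the layering and pruning of mossy fibres, the axons of dentate granule neurons, with roles for class 6 semaphorins, A plexins, Nrp2 and class 5 semaphorins at granule neuron synapses.

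The tables hold 0 columns of values per library, so no value per animal can be shown. Each gene is given by its log2 fold change ± standard error from the authors' DESeq2 fit, and was called at the authors' adjusted p under 0.05 over all genes of the table. A level below is a group mean in normalized counts, estimated from the authors' mean over both groups and the fold change with its shrinkage removed. Such a level carries no error. The 3 tables were normalized separately. Fos itself rose in each of the authors' deposited tables, by a log2 fold change of 3.36 ± 0.14 with shRNA-Ctrl, 2.33 ± 0.15 with shRNA-cFos and 3.34 ± 0.20 with overexpression. The granule neuron marker genes Prox1 and C1ql2, with means of 2741 and 4073 in the authors' deposited table of the control arm, were present as the tissue label requires. In the same authors' deposited table Mbp of oligodendrocytes (13793), Aqp4 of astrocytes (3759) and Gad1 of interneurons (6556) were also present, so each value is a mixture over cell types. In such bulk tissue, fewer cells of a type and less RNA per cell cannot be told apart.

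All 70 members had counts in every table, and in the authors' deposited table of the shRNA-Ctrl arm 65 had a mean of at least 50. Divided by the length of their merged exons in GENCODE M21, an annotation of a later build than the authors' mm9, the most abundant ligand genes in that deposited table were Slit1 (1306 normalized counts per kilobase), Efnb3 (1245), Sema6b (901) and Sema7a (644). Among receptor genes the leading levels per kilobase from the authors' deposited table were those of Epha4 (1038), Unc5a (990), Epha7 (474) and Ephb6 (432). The levels per kilobase came to 381 for Plxna4, 325 for Nrp1 and 264 for Nrp2, from the same deposited table. At the low end stood Sema3a with 2.34, Epha1 with 2.62 and Plxna4os1 with 3.96 normalized counts per kilobase, from the authors' deposited table. Epha1, Efna4 and Plxna4os1 had no adjusted p in the authors' deposited table of the shRNA-cFos arm, where Epha1 had the lowest mean of all members (5.26), so 67 members were tested there.

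Promoter sequence was available for 59 members in RefSeq's table for the build GRCm38.p6, as the 300 bases around each start (250 before and 50 after). The letters TGANTCA, a loose form of the AP-1 element with any middle base, read the same on both strands. They were found in 3 of these members, Sema4c, Sema4d and Sema6b (5.08%, against 8.97% of 27025 genes). With only C or G allowed in the middle, 2 members held a match, Sema4c and Sema6b (3.39%, against 5.95% of all genes). The 250 bases before the start are printed for 4 members. Sema6b and Sema4d were picked for having both a TGANTCA match and a response that differed between the hairpins. Nrp2 and Epha10 were picked for being higher in all 3 comparisons. Because a match was required of the first pair alone, the printed set cannot show a link between match and response. Plxna2, Unc5a, Sema5a and Epha4, whose responses also differed between the hairpins, held no match. Capitals mark the TGANTCA letters.
Sema6b, chr17:56133853-56134102, minus strand: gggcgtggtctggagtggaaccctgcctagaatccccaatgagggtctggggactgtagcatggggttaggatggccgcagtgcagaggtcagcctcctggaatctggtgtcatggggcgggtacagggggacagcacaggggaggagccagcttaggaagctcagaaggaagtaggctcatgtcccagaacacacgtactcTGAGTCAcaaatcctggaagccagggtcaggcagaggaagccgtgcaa
Sema4d, chr13:51748811-51749060, minus strand: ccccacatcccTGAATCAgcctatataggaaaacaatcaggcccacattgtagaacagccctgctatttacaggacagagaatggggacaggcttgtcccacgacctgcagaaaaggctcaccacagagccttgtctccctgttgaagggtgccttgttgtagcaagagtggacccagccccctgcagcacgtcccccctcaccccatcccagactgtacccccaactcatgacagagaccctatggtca
Nrp2, chr1:62703067-62703316, plus strand: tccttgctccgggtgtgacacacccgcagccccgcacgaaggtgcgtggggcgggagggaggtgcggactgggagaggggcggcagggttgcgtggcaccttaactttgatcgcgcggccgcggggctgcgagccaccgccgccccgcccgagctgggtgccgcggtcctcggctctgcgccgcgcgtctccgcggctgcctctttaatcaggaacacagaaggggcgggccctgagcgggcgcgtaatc
Epha10, chr4:124881535-124881784, plus strand: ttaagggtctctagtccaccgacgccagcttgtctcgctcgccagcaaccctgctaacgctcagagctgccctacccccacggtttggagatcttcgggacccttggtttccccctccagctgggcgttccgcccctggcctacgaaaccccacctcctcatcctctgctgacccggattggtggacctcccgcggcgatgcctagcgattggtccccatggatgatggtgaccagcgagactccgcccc
In Sema6b the match TGAGTCA began 48 bases before this start, in 1 of the 2 start windows listed for the gene. In Sema4d the match TGAATCA, of the loose form alone, began 239 bases before the start, in 1 of 3 windows. The windows of Nrp2 and Epha10 held no match. A match is a description of letters, and with or without the 50 bases after the start the same 3 members held one.

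The first comparison asked how guidance genes followed activation with the control hairpin. Ligands and receptors split in both directions: at E1, 12 of 70 members rose and 16 fell by the authors' deposited table, and none changed by 2-fold on the authors' shrunken scale. Called members made up 40.0%, beside 33.0% of all genes tested (16.8% higher and 16.2% lower), but at 1.5-fold or more 8.57%, beside 10.6% of all genes. Among genes with a mean of at least 50 the shares were 46.2% of members and 38.6% of all genes. The median log2 fold change of the members was -0.01, beside 0.01 over all genes tested.

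Semaphorins were called most often of the guidance systems, with 6 of 20 up and 6 down at E1 in the authors' deposited table of the control arm. Membrane semaphorins that fell were led by Sema6b, a ligand of A plexins, whose estimated level went from 4532 at E0 to 2616 at E1 (log2 fold change -0.78 ± 0.08 in the authors' deposited table, adjusted p = 4.92e-22). Sema7a, a membrane-anchored semaphorin that binds Plxnc1 and integrins, went from 2612 to 1637 (-0.66 ± 0.07 in the authors' deposited table, adjusted p = 1.18e-17). Both class 5 members fell as well, Sema5a with a log2 fold change of -0.34 ± 0.08 and Sema5b with -0.43 ± 0.12 in the authors' deposited table, as did Sema6c (-0.28) and Sema4f (-0.34). The 4 semaphorin genes with the highest level per kilobase, Sema6b, Sema7a, Sema4f and Sema5a, were thus all lower at E1. The semaphorins that rose ranked below these per kilobase. Sema4g went from 514 to 788 (0.60 ± 0.09 in the authors' deposited table, adjusted p = 1.98e-09). Sema6a, the class 6 ligand of Plxna2 and Plxna4, went from 383 to 547 (0.49 ± 0.11 in the authors' deposited table, adjusted p = 3.63e-05). Sema4c went from 318 to 481 (0.57 ± 0.13 in the authors' deposited table, adjusted p = 5.64e-05). The other risers were Sema4d (0.25), a ligand of Plxnb1, and the secreted Sema3e (0.38) and Sema3g (0.42) in the authors' deposited table. The 8 semaphorins not called lay between -0.35 and 0.39 on the log2 scale.

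Semaphorin receptors gave 2 higher and 2 lower calls among 11. Nrp2, the neuropilin that binds Sema3f, rose from an estimated 2569 to 3686 normalized counts (log2 fold change 0.51 ± 0.07 in the authors' deposited table of the control arm, adjusted p = 4.30e-11), and Nrp1, the Sema3a receptor, had 0.23 ± 0.10 there and was not called. Plxna4 fell from 6329 to 4407 (-0.51 ± 0.08 in the authors' deposited table, adjusted p = 7.75e-10) and Plxna2 by less (-0.19 ± 0.07). Plxnb2, a class 4 semaphorin receptor, rose by 0.30 ± 0.12 in the authors' deposited table. The other 6 plexins were not called and lay between -0.14 and 0.31 on the log2 scale.

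Of the ephrins, 1 of 8 rose and 1 fell at E1 with shRNA-Ctrl. Efnb2, a transmembrane ephrin of neurons and arteries, went from an estimated 605 to 952 normalized counts (log2 fold change 0.61 ± 0.14 in the authors' deposited table, adjusted p = 1.92e-04). Efna2, a lipid-anchored ephrin, went from 152 to 75.9 (-0.92 ± 0.16 in the authors' deposited table, adjusted p = 2.08e-07). The 2 called ephrins thus moved in opposite directions. Among 14 Eph receptors, 1 rose and 3 fell. Epha10, an Eph receptor that lacks a working kinase, went from 886 to 1432 (0.67 ± 0.10 in the authors' deposited table, adjusted p = 1.57e-09). Epha4, which binds ephrins of both classes and was the most abundant Eph receptor gene per kilobase, went from 9661 to 7060 (-0.44 ± 0.09 in the authors' deposited table, adjusted p = 1.15e-05). Epha7 (-0.31) and Ephb2 (-0.31) fell too in the authors' deposited table.

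Slits and Robos hardly entered the calls with shRNA-Ctrl. Robo2 fell (log2 fold change -0.26 ± 0.10) in the authors' deposited table, and the other 6 were not called, with values between -0.11 and 0.16. Netrin receptors went both ways. Unc5a, the most abundant netrin receptor gene per kilobase, went from an estimated 4806 to 3448 normalized counts (-0.47 ± 0.08 in the authors' deposited table, adjusted p = 4.97e-07), while Unc5b (0.39 ± 0.12) and Unc5d (0.55 ± 0.13) rose there. The ligand genes Ntn3 (-0.34) and Ntn5 (-0.45) fell in the authors' deposited table. Ntn5 shares 23.4% of its exon bases with Sec1 on the opposite strand, so its values are uncertain. The genes Dcc (-0.14 ± 0.12), Ntn1 (0.25 ± 0.15), Ntn4 (0.23 ± 0.18) and Unc5c (0.25 ± 0.11) were not called.

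**Figure D1:**
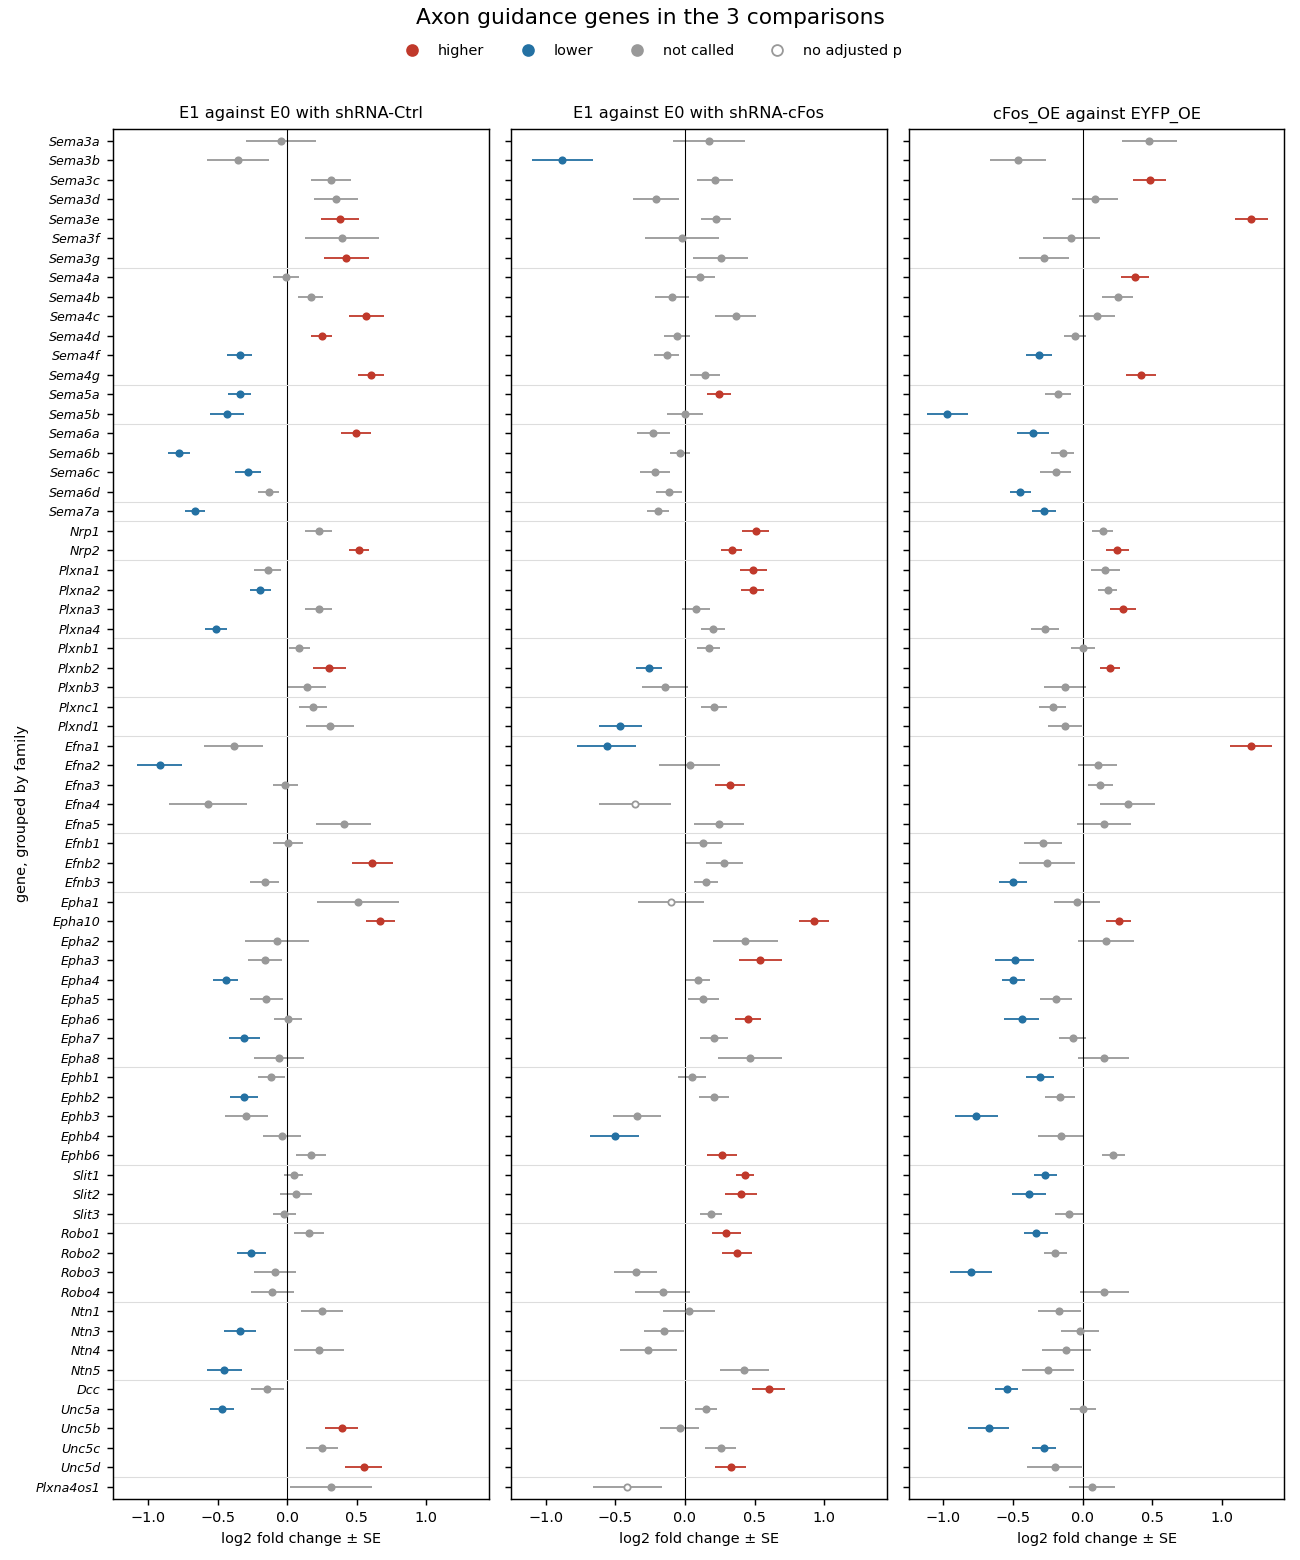
Log2 fold change (x axis) ± standard error of the 70 guidance genes (rows, grouped by family) in the authors' deposited tables for the 3 comparisons (panels), with genes called higher in red, lower in blue and not called in grey. Semaphorins hold 12 of the 28 calls in the first panel, Eph receptors, Slits and Robos lie mostly to the right in the second, and Sema3e and Efna1 stand alone past 1 in the third.

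The second comparison took the step from E0 to E1 with the hairpin named for c-Fos. Receptors now led, and mostly upward: of 67 members tested, 16 rose and 5 fell by the authors' deposited table, and 12 of the 16 risers were receptor genes. Called members made up 31.3%, beside 28.1% of all genes tested (16.3% higher and 11.7% lower), and among genes with a mean of at least 50 the shares were 38.1% and 32.2%. The share called overall was thus close to that of all genes. The members' median log2 fold change was 0.15, beside -0.0031 over all genes. At an adjusted p under 0.01 there were 12 called members (17.9%, beside 18.2% of all genes), 11 of them higher.

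Semaphorins, so often called with shRNA-Ctrl, gave 1 riser and 1 faller among 20 in the authors' deposited table of the c-Fos hairpin arm. Sema5a rose (log2 fold change 0.24 ± 0.09 in the authors' deposited table), and the secreted Sema3b fell from an estimated 110 to 49.8 normalized counts (-0.88 ± 0.22 there, adjusted p = 6.39e-04). Sema6b (-0.04 ± 0.07) and Sema7a (-0.19 ± 0.08), the leading fallers with the control hairpin, were not called in the authors' deposited table. Both neuropilins rose. Nrp1 went from 2008 to 2888 (0.51 ± 0.09 in the authors' deposited table, adjusted p = 1.56e-06) and Nrp2 from 2005 to 2543 (0.34 ± 0.08, adjusted p = 1.11e-04). Among A plexins, the partners of neuropilins, Plxna1 went from 1803 to 2564 (0.49 ± 0.10 in the authors' deposited table, adjusted p = 5.60e-06). Plxna2 went from 1347 to 1903 (0.49 ± 0.08 in the authors' deposited table, adjusted p = 6.45e-08). The neuropilins and these A plexins thus rose in the same arm. The other A plexins, Plxna3 (0.08 ± 0.10) and Plxna4 (0.20 ± 0.08), were not called there. Plxnd1, the Sema3e receptor of vessels and some neurons, fell (-0.46 ± 0.15 in the authors' deposited table, adjusted p = 0.0136), as did Plxnb2 (-0.26 ± 0.09, adjusted p = 0.0234).

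Epha10 rose more than any other member with shRNA-cFos, from an estimated 531 to 1040 normalized counts (log2 fold change 0.93 ± 0.11 in the authors' deposited table, adjusted p = 1.02e-15). Epha6 (0.45 ± 0.09), Epha3 (0.54 ± 0.15) and Ephb6 (0.27 ± 0.10) rose as well, and Ephb4, an Efnb2 receptor best known from veins, fell (-0.51 ± 0.18 in the authors' deposited table, adjusted p = 0.0192). All 8 tested A Eph receptors had values above 0, of which 3 passed. Among the ephrins Efna3 rose (0.33 ± 0.11 in the authors' deposited table) and Efna1, an ephrin expressed in endothelium, fell (-0.56 ± 0.21, adjusted p = 0.0335).

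Slits and Robos, nearly absent from the calls with shRNA-Ctrl, rose for 4 of 7 members with shRNA-cFos. Slit1, the most abundant guidance ligand gene per kilobase, went from an estimated 4247 to 5752 normalized counts (log2 fold change 0.43 ± 0.07 in the authors' deposited table, adjusted p = 1.93e-09). Slit2 (0.40 ± 0.11), Robo1 (0.30 ± 0.11) and Robo2 (0.37 ± 0.11) followed in the authors' deposited table. Robo3, known for its part in midline crossing, had -0.35 ± 0.15 and was not called. Dcc, the attractive netrin receptor, went from 541 to 840 (0.60 ± 0.12 in the authors' deposited table, adjusted p = 7.46e-06). Unc5d rose too (0.33 ± 0.11 in the authors' deposited table), while no netrin was called, with values from -0.26 to the 0.42 of Ntn5 in the authors' deposited table.

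**Figure D2:**
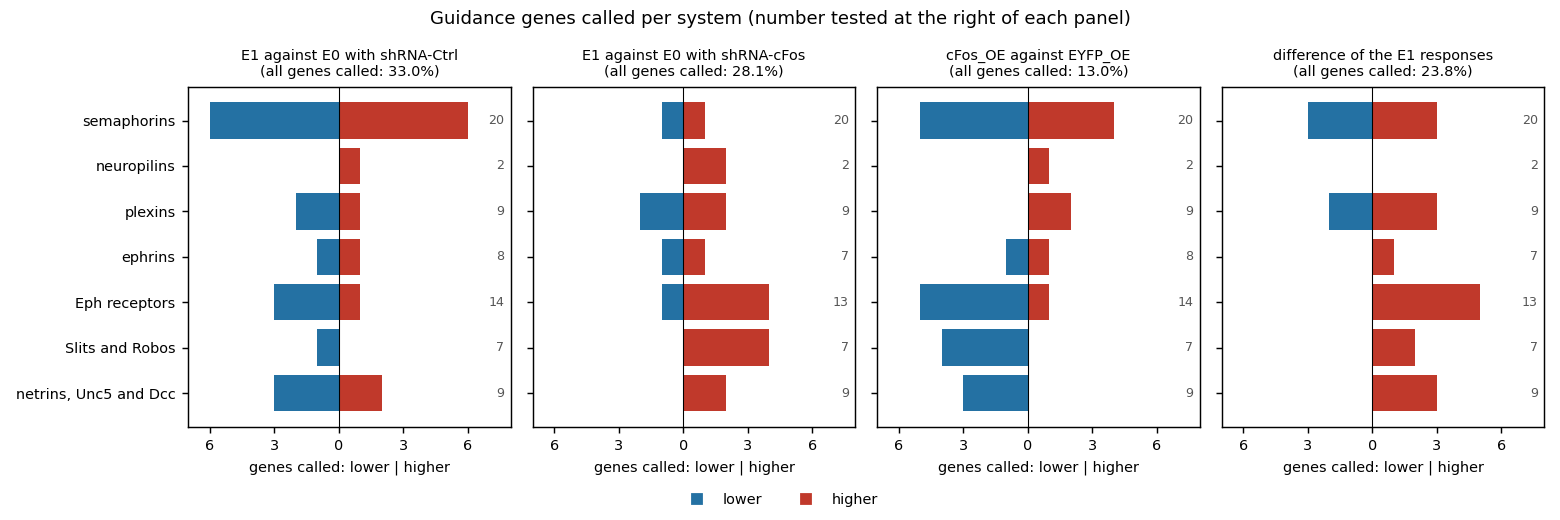
Number of guidance genes called lower (bars to the left, blue) and higher (bars to the right, red) per system in the 3 comparisons and in the test of the difference of the E1 responses, with the number tested at the right of each panel. Semaphorins hold 12 of the 28 calls with shRNA-Ctrl and 2 of the 21 with shRNA-cFos, and the 4 Slit and Robo calls with shRNA-cFos are all higher, while the 4 with overexpression are all lower.

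The third comparison asked which guidance genes changed with c-Fos overexpression, with no E1 group in the comparison. Most called members were lower: of 70, 9 rose and 18 fell by the authors' deposited table. Called members made up 38.6%, beside 13.0% of all genes tested (7.10% higher and 5.86% lower). Among genes with a mean of at least 50 the shares were 43.8% of members and 15.7% of all genes. The median log2 fold change of the members was -0.12, beside -0.01 over all genes. At an adjusted p under 0.01, 17 members were called (24.3%, beside 8.63% of all genes), 5 higher and 12 lower.

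The 2 largest rises were those of ligands. Sema3e, a secreted semaphorin that signals through Plxnd1, went from an estimated 1080 normalized counts with EYFP to 2733 with c-Fos, a log2 fold change of 1.21 ± 0.12 (2.32-fold) in the authors' deposited table (adjusted p = 1.99e-21). Efna1 went from 89.7 to 247, a log2 fold change of 1.21 ± 0.15 (2.31-fold) in the authors' deposited table (adjusted p = 4.86e-13). No other member reached 2-fold on this shrunken scale. With the shrinkage removed, the values were 1.34 for Sema3e, 1.46 for Efna1 and -1.14 for Sema5b, computed from the authors' deposited table, so that Sema5b then passed 2-fold as well. Smaller rises were those of Sema3c (0.48 ± 0.12), Sema4g (0.42 ± 0.11), Sema4a (0.37 ± 0.10), Plxna3 (0.29 ± 0.09), Epha10 (0.26 ± 0.09), Nrp2 (0.25 ± 0.08) and Plxnb2 (0.20 ± 0.07) in the authors' deposited table. Plxnd1, the receptor of Sema3e, was not called (-0.12 ± 0.12 in the authors' deposited table).

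Among semaphorins that fell with overexpression, Sema5b went from an estimated 518 to 235 normalized counts (log2 fold change -0.97 ± 0.14 in the authors' deposited table, adjusted p = 1.43e-09). Sema6d went from 1654 to 1199 (-0.45 ± 0.08 in the authors' deposited table, adjusted p = 1.29e-07). Sema6a (-0.36), Sema4f (-0.31) and Sema7a (-0.28) fell by less in the authors' deposited table. Classes 5, 6 and 7 thus had values below 0 throughout, and 4 of these 7 genes passed.

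Eph receptors fell for 5 of 14 members with overexpression and rose for 1, Epha10. Epha4 went from an estimated 9064 to 6328 normalized counts (log2 fold change -0.50 ± 0.08 in the authors' deposited table, adjusted p = 5.20e-08). Ephb3 (-0.76 ± 0.15), Epha3 (-0.49 ± 0.14), Epha6 (-0.44 ± 0.13) and Ephb1 (-0.31 ± 0.10) fell there too. Efnb3, a ligand of Epha4 and the most abundant ephrin gene per kilobase, went from 3175 to 2195 (-0.50 ± 0.10 in the authors' deposited table, adjusted p = 9.21e-06). Epha4 and this B ephrin were thus lower in the same comparison. The A ephrins, the other class that Epha4 binds, all had values above 0 there (5 of 5), and Efna1 was called higher.

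Slits and Robos fell for 4 of 7 members with overexpression. Robo3 went from an estimated 471 to 242 normalized counts (log2 fold change -0.80 ± 0.15 in the authors' deposited table, adjusted p = 4.40e-06). Slit1 (-0.27 ± 0.08), Slit2 (-0.39 ± 0.12) and Robo1 (-0.33 ± 0.09) also fell there. Dcc went from 950 to 640 (-0.55 ± 0.08 in the authors' deposited table, adjusted p = 4.79e-09). Unc5b (-0.68 ± 0.15) and Unc5c (-0.28 ± 0.09) fell, and no netrin was called, with values from -0.25 to -0.02 in the authors' deposited table.

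Set side by side, the 3 tables share no libraries. Nrp2 and Epha10 were called higher in all 3, and no member was called lower in all 3. The share of all genes called alike in all 3 was not computed, so these counts describe the members alone. Between shRNA-Ctrl at E1 and overexpression, 5 members were higher in both (Epha10, Nrp2, Plxnb2, Sema3e and Sema4g), 4 lower in both (Epha4, Sema4f, Sema5b and Sema7a) and 2 opposed (Sema6a and Unc5b), beside 249 opposed of 965 among all genes called in both (25.8%). Between shRNA-cFos at E1 and overexpression, 8 of the 10 members called in both were opposed, beside 540 of 828 among all genes (65.2%), computed from the authors' deposited tables. Of the 67 members tested in both, called or not, 37 had the same sign. Dcc, Epha3, Epha6, Robo1, Slit1 and Slit2 were higher at E1 with shRNA-cFos and lower with overexpression, and Efna1 and Plxnb2 the reverse, against 2 members higher in both and 0 lower in both. Across the members, the Spearman correlation of log2 fold changes was 0.25 between shRNA-Ctrl and overexpression (70 genes), 0.11 between shRNA-cFos and overexpression (67 genes) and 0.16 between the hairpin arms (67 genes), from the authors' deposited tables. Over all genes tested in both tables the values were 0.21, -0.16 and 0.18 in the same order. Within each table all genes come from the same libraries, so these correlations across genes are given as descriptions. In 16 members no table gave a call, among them Ntn1, Sema3a, Sema3d, Plxnb1 and Slit3, and a further 3 (Efna4, Epha1 and Plxna4os1) were called in neither of the tables that tested them. No share of all genes was computed beside these counts either.

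The fourth comparison set the E1 responses of the 2 hairpin arms against each other, as the log2 fold change with shRNA-cFos minus that with shRNA-Ctrl. It differed for 22 of 67 members, computed from the authors' deposited tables: shRNA-cFos gave the higher response in 17 and the lower in 5. That is 32.8%, beside 23.8% of all genes tested (12.9% higher and 11.0% lower). The median difference was 0.12, beside 0.01 over all genes. At least 1.5-fold differences numbered 13 (19.4%, beside 11.9% of all genes), of which 11 were higher.

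The Sema6b response differed most clearly, by 0.74 ± 0.10 on the log2 scale (adjusted p = 3.14e-10, normal approximation with Benjamini-Hochberg adjustment, computed from the authors' deposited tables). Its fall with shRNA-Ctrl had no called counterpart with shRNA-cFos. The A plexins followed, with Plxna4 at 0.71 ± 0.11 (adjusted p = 4.41e-08), Plxna2 at 0.68 ± 0.11 (adjusted p = 4.94e-08) and Plxna1 at 0.63 ± 0.14 (adjusted p = 8.26e-05), computed from the authors' deposited tables. Plxna2 changed sign between the arms, falling with shRNA-Ctrl and rising with shRNA-cFos, as did Sema5a (difference 0.59 ± 0.12, adjusted p = 2.67e-05) and Robo2 (0.63 ± 0.15, adjusted p = 3.71e-04). Plxnb2 changed sign the other way, rising with shRNA-Ctrl and falling with shRNA-cFos. Of the members called in both arms, these 3 and Plxnb2 were thus opposed, while 3 were higher in both and 0 lower in both. Among all genes called in both arms, 570 of 2061 were opposed (27.7%). Plxna3 was the A plexin without a called difference (-0.15 ± 0.14, computed from the authors' deposited tables). Unc5a (0.62 ± 0.12, adjusted p = 3.21e-06) and Dcc (0.74 ± 0.17, adjusted p = 1.30e-04) had a higher response with shRNA-cFos, computed in the same way.

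Eph receptors with a called difference all had a higher response with shRNA-cFos, 5 of 13 tested: Epha4 (0.54), Epha3 (0.70), Ephb2 (0.52), Epha7 (0.52) and Epha6 (0.45), computed from the authors' deposited tables. The 8 tested A Eph receptors had differences above 0, including those not called. Efna2 (0.95 ± 0.27, adjusted p = 0.00395), Ntn5 (0.88 ± 0.22, adjusted p = 6.11e-04), Sema7a (0.47) and Slit1 (0.38) completed the genes with a higher response. The 5 with a lower response were Sema6a (-0.72 ± 0.16, adjusted p = 1.09e-04), Plxnb2 (-0.56 ± 0.15, adjusted p = 0.00195), Plxnd1 (-0.77 ± 0.23, adjusted p = 0.00635), Sema4g (-0.46 ± 0.14, adjusted p = 0.00841) and Sema4d (-0.30 ± 0.12, adjusted p = 0.0467), computed from the authors' deposited tables. Sema4d lost its call when each table was centred on the median of all genes (adjusted p = 0.0557). Epha10 rose in both arms, and its difference of 0.26 ± 0.15 did not pass, which does not show that the responses were equal.

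**Figure D3:**
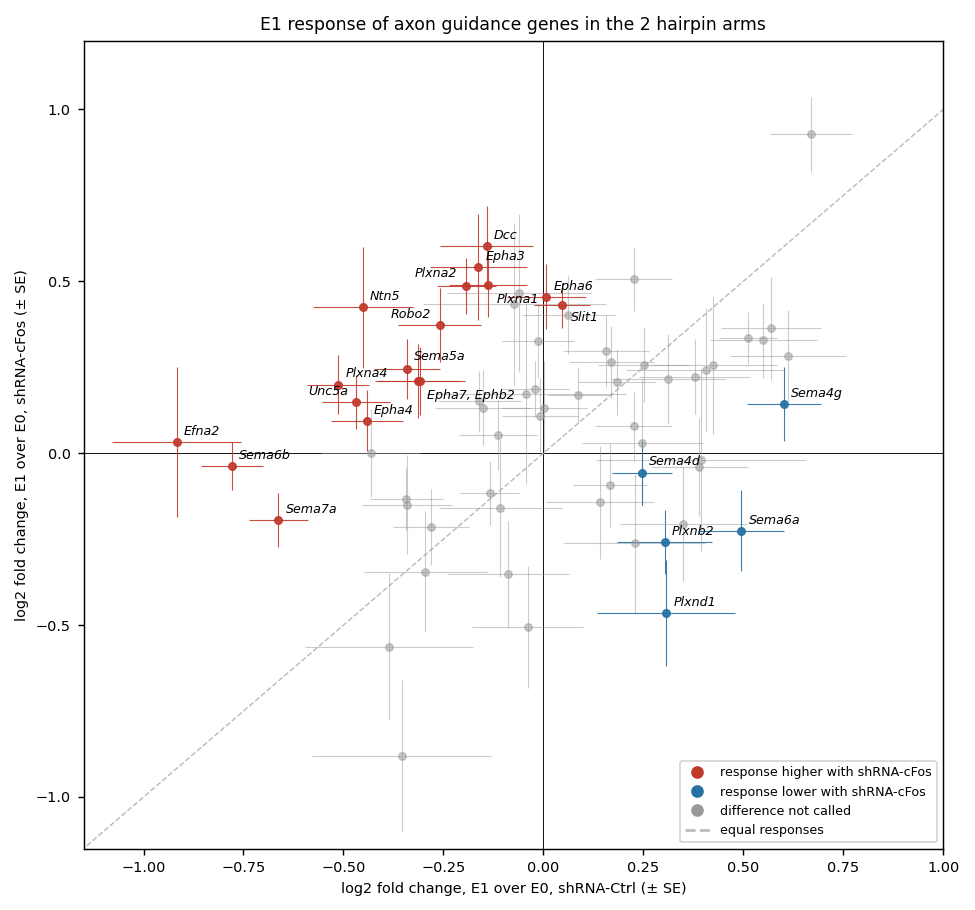
Log2 fold change of E1 over E0 with shRNA-Ctrl (x axis) against that with shRNA-cFos (y axis) for the 67 guidance genes tested in both of the authors' deposited tables, with standard errors as bars and equal responses on the dashed line. The 17 genes in red lie above the line, 15 of them with a value below 0 on the x axis, and the 5 in blue lie below it.

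Where the difference lay was read from estimated levels, after the table for shRNA-cFos had been shifted by the median log2 ratio of E0 levels over 12406 genes (-0.43). For all 17 genes with a higher response, the E0 level was lower with shRNA-cFos than with shRNA-Ctrl, with a median log2 ratio of -0.37 and a range from -1.01 to -0.03. At E1 the median ratio of these genes was 0.27, with a range from -0.05 to 0.60. The genes were selected on the difference, which by itself favours opposite ratios at E0 and E1, so these values are a description with no test. For Sema6b the ratios were -0.15 at E0 and 0.60 at E1, the larger part lying at E1. For Unc5a they were -0.58 and 0.05 and for Sema5a -0.58 and 0.02, so that nearly all of their difference lay at E0. Plxna4 was divided more evenly, with -0.39 at E0 and 0.33 at E1. The 5 genes with a lower response had E0 ratios above 0, from 0.08 for Plxnb2 to 0.61 for Sema6a.

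**Figure D4:**
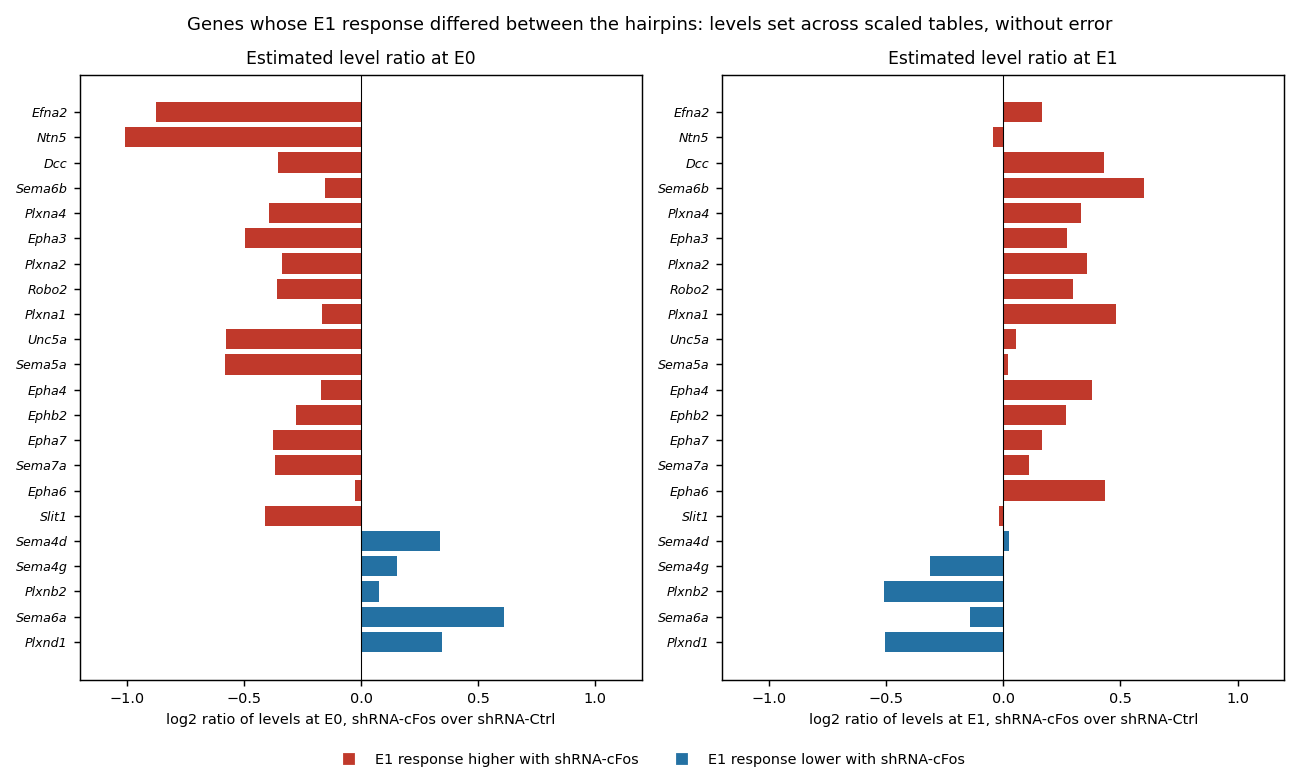
Log2 ratio of the estimated level with shRNA-cFos over that with shRNA-Ctrl at E0 (left) and at E1 (right) for the 22 guidance genes whose E1 response differed, in red where the response was higher with shRNA-cFos and in blue where it was lower. At E0 every red bar points left and every blue bar right, while at E1 the longest bars are those of Sema6b (0.60), Plxnb2 (-0.51) and Plxnd1 (-0.51); the bars carry no error.

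Marker genes of the tissue's cell types also changed in these comparisons. Of 16 dentate granule neuron markers, the authors' deposited tables had 10 lower and 1 higher at E1 in the control arm, 9 higher and 0 lower in the c-Fos hairpin arm, and 7 lower and 1 higher with overexpression. Prox1 (0.12) and C1ql2 (0.16) were among those not called with overexpression. The summed estimated level of these 16 markers went from 41766 at E0 to 31538 at E1 with shRNA-Ctrl and from 19924 to 25523 with shRNA-cFos. With overexpression it went from 34924 (EYFP) to 31278 (c-Fos). No shift between tables was applied to the sums in this paragraph, so each can be read only within its own comparison. In the test of the difference, 12 of these 16 markers had a higher response with shRNA-cFos and 0 a lower one (median 0.70). Microglial markers had a lower response for 9 of 14, with a median of -0.69. Their summed level went from 13377 to 17920 with shRNA-Ctrl, from 12620 to 9868 with shRNA-cFos, and from 10589 to 14269 with overexpression. Endothelial and mural markers had a lower response for 4 of 14 (median -0.39), and oligodendrocyte precursor markers for 5 of 12 (median -0.31), computed from the authors' deposited tables. The summed endothelial and mural level went from 5977 to 6596, from 4898 to 4620, and from 5540 to 4682 in the 3 comparisons, and that of the precursors from 7183 to 8195, from 6419 to 5522, and from 6273 to 5760. Of 12 astrocyte markers, 5 had a higher and 3 a lower response in the c-Fos hairpin arm, where 7 rose and 1 fell at E1, and their summed level went from 67084 to 85910 there, from 97258 to 95870 in the control arm and from 102825 to 99016 with overexpression. Interneuron markers rose for 9 of 14 in the control arm and 7 in the c-Fos hairpin arm by the authors' deposited tables, with summed levels from 14844 to 18500 and from 10434 to 14497, and 2 fell with overexpression (14800 to 14174). All 12 oligodendrocyte markers had values below 0 with overexpression, of which 2 passed, and their summed level went from 38754 to 26857. No oligodendrocyte or interneuron marker had a called difference. Of 14 neural progenitor and immature neuron markers, 6 rose and 0 fell with overexpression (summed level 9705 to 11565), and 1 had a higher response with shRNA-cFos. Of 16 CA pyramidal and mossy cell markers, 3 rose and 1 fell in each hairpin arm, and 0 rose and 2 fell with overexpression. The median log2 fold change of these markers was 0.29 with shRNA-Ctrl, 0.0067 with shRNA-cFos and -0.03 with overexpression. In the granule neuron markers the median with shRNA-Ctrl was -0.47. The summed CA and mossy cell level went from 13954 to 17038, from 11168.5 to 12747 and from 14314 to 15063 in the 3 comparisons. The response of the CA pyramidal and mossy cell markers was higher for 1 and lower for 2 (median -0.32). None of the markers in these lists had a mean of 0 in any table. The part of these shifts in the changes of guidance genes was not tested.

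Partner and downstream genes of the guidance pathways, taken from 5 lists of coreceptors, other cues and signal transducers, were also followed. Of 166 such genes tested in the authors' deposited tables, those called numbered 32 higher and 37 lower in the control arm, 52 and 17 in the c-Fos hairpin arm, and 24 and 25 with overexpression. These made up 41.6%, 41.6% and 29.5%, beside 40.0%, 31.3% and 38.6% of the members and 33.0%, 28.1% and 13.0% of all genes. The response of 41 was higher, and that of 17 lower, in the c-Fos hairpin arm (34.9%, beside 23.8% of all genes), computed from the authors' deposited tables. Coreceptors and other guidance receptors rose for 9 of 35 and fell for 7 with shRNA-Ctrl, rose for 11 and fell for 6 with shRNA-cFos, and rose for 5 and fell for 8 with overexpression. The Nogo receptor partner Lingo1 (1.27 ± 0.13 with shRNA-Ctrl and 1.40 ± 0.11 with shRNA-cFos) and the Nogo receptor relative Rtn4rl2 (1.17 ± 0.12 and 0.98 ± 0.10) rose in both arms in the authors' deposited tables. Islr2, a neuronal leucine-rich repeat protein, fell in both (-1.83 ± 0.11 and -0.63 ± 0.09), by less with shRNA-cFos (difference 1.19 ± 0.14). Signal transducers of semaphorins and plexins rose for 7 of 37 and fell for 4 with shRNA-Ctrl, rose for 11 and fell for 3 with shRNA-cFos, and rose for 7 and fell for 2 with overexpression. With shRNA-Ctrl, Rras2, a Ras-related GTPase, had -0.71 ± 0.10 in the authors' deposited table. Signal transducers of ephrins and Eph receptors fell for 11 of 31 and rose for 3 with shRNA-Ctrl, rose for 9 and fell for 5 with shRNA-cFos, and fell for 7 and rose for 3 with overexpression. Kalrn, a signalling protein of dendritic spines, fell with overexpression (-0.67 ± 0.07), as did Chn1, a Rac GTPase-activating protein that acts below Epha4 (-0.57 ± 0.08), in the authors' deposited table. Transducers of Slits, Robos, netrins and Dcc rose for 8 of 36 and fell for 9 with shRNA-Ctrl, rose for 12 and fell for 3 with shRNA-cFos, and rose for 4 and fell for 4 with overexpression. Arhgap39 had the smallest adjusted p for a difference between the arms among all 5 lists (1.10 ± 0.13, computed from the authors' deposited tables). Other guidance ligands and matrix cues rose for 6 of 29 and fell for 7 with shRNA-Ctrl, rose for 9 and fell for 1 with shRNA-cFos, and rose for 5 and fell for 4 with overexpression. Among them, Acan, the core protein of perineuronal nets, rose by 2.40 ± 0.15 and Wnt7b by 1.24 ± 0.10 with overexpression in the authors' deposited table.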

How the data were processed

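RNA-seq libraries were grouped by sample title. The submitters' processing notes name TopHat2, DESeq2 and mm9 without versions. The counter, annotation and strand setting were not stated in the labels. Per the file headers, the authors deposited a mean normalized count (a signal value, counts divided by size factors), a log2 fold change and standard error on the log2 scale, a Wald score, a p-value and an adjusted p-value for each gene. The deposited tables hold 0 columns of values per library, so the depth is unknown and precision rests on the deposited standard errors (members' median 0.11 in each table). Log2 fold changes are shrunken, with a prior of standard deviation 0.59, 0.53 and 0.41. Its removal, where stated, was algebraic and leaves the Wald score as it was.

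Calls used the authors' adjusted p under 0.05 over all genes. The E1 responses were compared by dividing the difference of their log2 fold changes by its standard error (both errors squared, summed and rooted), taking p from the normal distribution on both sides and adjusting by Benjamini-Hochberg over 14386 genes (scipy 1.17.1), tested on simulated data first. For overexpression, 27 rows named by a date in place of a gene were left out. Members and lists were chosen with earlier results of these data known. Every member could be named. Full statistics went to at most 6 higher and 6 lower genes per comparison by adjusted p, and pathway genes were named for at most 2 in each direction. Alternatives were centring, prior removal, a fold minimum of 1.5, an adjusted p under 0.01 and a mean of at least 50. With 3 animals a group and no value per animal, p-values rest on the authors' model.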

Additional observations from a re-analysis of the deposited data

Results flagged for a closer look

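How far the E1 response of each guidance gene differed between the hairpins was tested directly, and 22 genes passed an adjusted p of 0.05. The values are log2 fold changes with shRNA-cFos minus those with shRNA-Ctrl, computed from the authors' deposited tables. Higher with shRNA-cFos were the semaphorin genes Sema6b (0.74), Sema5a (0.59) and Sema7a (0.47), and the plexin genes Plxna4 (0.71), Plxna2 (0.68) and Plxna1 (0.63). So were the netrin system genes Unc5a (0.62), Dcc (0.74) and Ntn5 (0.88), the Slit and Robo genes Slit1 (0.38) and Robo2 (0.63), and the ephrin and Eph genes Efna2 (0.95), Epha3 (0.70), Epha4 (0.54), Ephb2 (0.52), Epha7 (0.52) and Epha6 (0.45). Lower with shRNA-cFos were Sema6a (-0.72), Plxnd1 (-0.77), Plxnb2 (-0.56), Sema4g (-0.46) and Sema4d (-0.30).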

How the results depend on the processing

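Centring on the median of all genes, or keeping only genes with a mean of at least 50, moved no count of called members by over 1.5 times. Called members kept their direction and call after centring in every comparison, except Sema4d in the difference of the responses, which was no longer called (-0.29, adjusted p = 0.0557). In the 3 deposited comparisons, removal of the prior left sign and adjusted p as they were by construction, so it could not test the calls. The difference of the responses was tested again without the prior, and its 22 called members kept their direction and call. A fold minimum of 1.5 left 6 members with shRNA-Ctrl (3 higher and 3 lower), 3 with shRNA-cFos (2 higher and 1 lower), 6 with overexpression (2 higher and 4 lower) and 13 for the difference (11 higher and 2 lower). As shares of the members tested these were 8.57%, 4.48%, 8.57% and 19.4%, beside 10.6%, 7.49%, 3.89% and 11.9% of all genes, so in both hairpin arms the members lay below all genes at this fold. At an adjusted p under 0.01, 12 members remained with shRNA-cFos, with 1 lower, and 17 with overexpression, with 5 higher. No paired analysis was possible because the tables hold comparisons and no values per library, and for the same reason no replicate was left out. Precision is limited for members with low means: the standard errors of Epha1, Efna4 and Plxna4os1 lay between 0.28 and 0.29 with shRNA-Ctrl, near the largest found (0.29). The prior holds shrunken standard errors below a ceiling near that value, so those of these 3 genes understate their uncertainty.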

Other observations

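Some members share exon bases with another gene in GENCODE M21, and the strand setting of the counting is unknown. Ntn5 shares 23.4% of its exon bases with Sec1 on the opposite strand, the largest share found, so its values are uncertain. Efna3 shares 14.1% with Gm15998, Plxna1 10.7% with Gm26811 and Efna4 10.5% with 4731419I09Rik, all on the opposite strand. For the other members with such an overlap the share was at most 7.27%.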
